A study of Mus musculus with 5 samples.

Results

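Histone genes were followed in RNA from muscle satellite cells of wild-type and mdx mice. They were taken from the deposited table by symbol, and 61 of its 22683 rows matched. Of these, 47 carry a Hist1 to Hist4 symbol and are protein coding. They are the clustered, replication-dependent genes: 6 for the linker histone H1, 9 for H2A, 13 for H2B, 7 for H3 and 12 for H4. The other 14 rows are replacement genes. Of them, 11 are protein coding, 2 are processed pseudogenes (H3f3c and H2afy3) and 1 is an antisense RNA (H3f3aos).

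The cells were labelled as quiescent satellite cells, the resting stem cells of skeletal muscle, and were isolated by fluorescence-activated sorting. Wild type had 2 libraries and mdx, a mouse model of muscular dystrophy, had 3. Each was prepared from 10000 to 20000 sorted cells with a kit for strand-aware total RNA sequencing at low input. The mdx allele, strain, age, muscle, sorting markers and the number of animals per library were not given in the sources used here, so p-values measure the spread between libraries, which may be technical.

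Dmd, the gene mutated in mdx mice, stood at 11826 and 9266 normalized counts (reads per gene scaled by library) in wild type but at 4642, 4116 and 3700 in mdx. Xist, transcribed from the inactive X chromosome, was at 30235 and 30176 in wild type but at 0, 0 and 12 in mdx, so sex and genotype cannot be told apart in any comparison below. Library totals lay between 12473348 and 16825045 normalized counts, and all 61 histone rows together took 579.2 to 958.7 CPM (counts scaled to equal library totals). Satellite cell markers summed to 127842 to 143057 normalized counts in wild type and 73846 to 102565 in mdx (15 tested, 4 higher and 6 lower in mdx). Endothelial markers summed to 2916 to 3394 and 18601 to 24492 (11 of 12 higher, 1 lower, 3 listed at 0 in both wild-type libraries). Macrophage markers summed to 428 to 616 and 12251 to 18933 (11 of 12 higher, 5 listed at 0 in both wild-type libraries). Fibro-adipogenic and mesenchymal markers summed to 32368 to 44881 and 104442 to 179977 (9 of 12 higher, 1 lower), and the 5 lymphocyte markers in the table to 39 to 151 and 66 to 173 (3 listed at 0 in both wild-type libraries). The part of these other cell types in the histone results was not tested. In bulk RNA such as this, fewer cells of a type and less RNA per cell cannot be told apart.

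Histones are the proteins around which DNA is wrapped. H2A, H2B, H3 and H4 form the core of the nucleosome, and H1 binds the DNA between cores. Replication-dependent genes supply them during DNA synthesis. Their mRNAs typically end not in a poly(A) tail but in a stem-loop that the stem-loop binding protein recognises, and they are degraded when replication stops. Replacement variants are transcribed throughout the cell cycle and in resting cells, usually as polyadenylated mRNAs. A total RNA library does not select for a poly(A) tail, so both kinds can be read in it.

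The stem-loop is described first, because it distinguishes these mRNA classes and the rule on symbols did not use it. Its 16 letters (GG, any 2 bases, CTTTT, any 1 base, AG, any 2 bases, CC) were searched in the first 100 bases after the stop codon (sense strand, GENCODE M21 transcripts on GRCm38, which is mm10). They were found in 34 of the 47 replication-dependent genes, in 1 of 11 protein-coding replacement genes and in 1 of 15128 genes that the rule on symbols did not match (0.00661%). By family the motif was present in 4 of 6 H1, 5 of 9 H2A, 10 of 13 H2B, 5 of 7 H3 and 10 of 12 H4 genes. The annotated transcripts of Hist1h2ai, Hist1h2ak, Hist1h2an, Hist1h2bl, Hist1h3h, Hist1h3i, Hist1h4k and Hist2h2ab end at the stop codon. No bases could be searched in them, and few in Hist1h1b (transcript 743 bases, coding sequence 669). These genes are therefore not shown to lack a stem-loop. The replacement gene with it was H2afx, encoding the variant that is phosphorylated at DNA breaks. The forms below are shown because H4 differs from the other families in them. Capitals mark the arms and lower case the loop.
Hist1h4c, Hist1h4d, Hist1h4h and Hist4h4: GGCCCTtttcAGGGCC
Hist2h4: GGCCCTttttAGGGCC
Hist1h1c, Hist1h1d and Hist1h1e: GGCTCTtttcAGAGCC
Hist1h1t: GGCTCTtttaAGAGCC
H2afx: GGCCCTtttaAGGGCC
In H4, 9 of 10 stem-loops began with GGCCCT and 1, that of Hist1h4j, with GGTCCT, whereas 24 of the other 25 began with GGCTCT. The motif began 26 to 55 bases after the stop codon in H4 and 22 to 47 bases after it in the other members. The stem-loop of Hist1h4c lies at chr13:23698089-23698104 (minus strand), that of Hist1h4d at chr13:23581950-23581965 (plus), that of Hist1h4h at chr13:23531458-23531473 (plus), that of Hist2h4 at chr3:96262939-96262954 (minus) and that of Hist4h4 at chr6:136803998-136804013 (minus).

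Promoters were compared in RefSeq windows on GRCm38.p6, from 250 bases before to 50 bases after the transcript start, which were matched for 54 of the 61 members and for 43 of the 47 replication-dependent genes. All motifs were searched on both strands. CCAAT was present in all 32 matched H1, H2A, H2B and H3 promoters but in 3 of 11 H4 promoters, against 37.41% of 32851 RefSeq promoters. TATAAA was in 29 of the 43 promoters (13.62% of all). The octamer ATTTGCAT was found in 5 of 9 H2A and 4 of 11 H2B promoters (1.735% of all). These counts take the first RefSeq window of each gene; only Hist1h2be, an H2B gene, had a second (chr13:23585921-23586220), which held the octamer where its first did not. AAACACA was present in 5 of 6 H1 promoters (7.184% of all), and an H4 element (TCAA, any base, C, any base, GGTCC) in 4 of 11 H4 promoters and in 18 of all 32851 (0.05479%). These last motifs were chosen after the promoters had been read. The H4 promoters with that element, those of Hist1h4c, Hist1h4d, Hist1h4h and Hist4h4, are shown as the 150 bases upstream of the start with motif matches in capitals. A pair of H1 promoters follows for comparison. No RefSeq window was matched to Hist2h4.
Hist1h4c, chr13:23698459-23698608 (minus strand): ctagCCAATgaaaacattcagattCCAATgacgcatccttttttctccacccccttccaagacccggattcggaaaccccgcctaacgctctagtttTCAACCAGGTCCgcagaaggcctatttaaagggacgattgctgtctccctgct
Hist1h4d, chr13:23581418-23581567 (plus strand): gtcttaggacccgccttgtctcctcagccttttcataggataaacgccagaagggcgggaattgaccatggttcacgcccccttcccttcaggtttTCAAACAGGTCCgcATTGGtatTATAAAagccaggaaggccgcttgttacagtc
Hist1h4h, chr13:23530894-23531043 (plus strand): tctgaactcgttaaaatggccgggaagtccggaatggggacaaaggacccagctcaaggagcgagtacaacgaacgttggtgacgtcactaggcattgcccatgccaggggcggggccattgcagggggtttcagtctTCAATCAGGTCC
Hist4h4, chr6:136804432-136804581 (minus strand): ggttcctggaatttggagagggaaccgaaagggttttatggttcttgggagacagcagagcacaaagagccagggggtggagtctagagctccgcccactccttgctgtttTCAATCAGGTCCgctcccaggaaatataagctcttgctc
Hist1h1b, chr13:21780626-21780775 (minus strand): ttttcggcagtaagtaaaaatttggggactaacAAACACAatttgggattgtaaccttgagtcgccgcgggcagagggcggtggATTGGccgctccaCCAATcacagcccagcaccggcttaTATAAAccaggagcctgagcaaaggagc
Hist1h1c, chr13:23738657-23738806 (plus strand): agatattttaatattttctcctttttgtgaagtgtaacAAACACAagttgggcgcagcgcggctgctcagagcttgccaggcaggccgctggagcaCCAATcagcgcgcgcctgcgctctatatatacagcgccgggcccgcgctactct

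The replication-dependent families did not move together. The summed H4 transcripts were 4.29-fold lower in mdx, the H2B sum was lower, and the sums of H1, H2A and H3 were higher, so the leading family was H4 in wild type and H1 in mdx. Family sums carry no test, and they depend less than a single gene does on how reads were divided among near-identical copies: 31 of the 47 coding sequences were more than 95% identical to that of another member, and 2 (Hist1h4m and Hist1h4n) were identical.

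The H4 sum was 3770 and 3473 normalized counts in wild type 1 and 2 but 595, 877 and 1061 in mdx, that is 3621.5 ± 210 (SD, n = 2) against 844 ± 235 (SD, n = 3). Every mdx library lay far below both wild-type libraries. H1 went the other way, at 1522 and 1296 in wild type and 1898, 2643 and 2337 in mdx, a mean 1.63-fold higher without overlap of the genotypes. The H2B sum was 804 and 933 in wild type and 377, 576 and 453 in mdx, 1.85-fold lower. H2A and H3 had the smallest sums: H2A came to 55 and 111 in wild type and 208, 337 and 190 in mdx, and H3 to 50 and 81 in wild type and 136, 161 and 170 in mdx. In both of these families all mdx libraries were above both wild-type libraries, at levels spread over several genes with few reads each. Over all 47 genes the sum was 6201 and 5894 in wild type and 3214, 4594 and 4211 in mdx, but as CPM the genotypes overlapped (407.5 and 350.3 against 201.7, 368.3 and 302.2). The number of these genes with a value above 0 was 35 and 31 in wild type and 31, 39 and 34 in mdx.

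Levels of different genes were compared per kilobase of the longest annotated transcript. On that scale H4 made up 65.9% and 65.8% of the replication-dependent sum in wild type and 17.6%, 18.6% and 24.9% in mdx. H1 made up 17.1% and 14.7% in wild type and 46.7%, 40.9% and 44.0% in mdx. The ratio of the per-kilobase H4 sum to that of H1 was 3.86 and 4.47 in wild type and 0.376, 0.456 and 0.567 in mdx, so H4 exceeded H1 in each wild-type library and was below it in each mdx library. This ratio within a library does not depend on the scaling between libraries. It can still vary with transcript length (median 727 bases in tested H4 genes and 1236 in H1), along which fold changes differed among all genes. It can also vary with the counting of reads from near-identical copies, which was not given. Coding identity to another member exceeded 95% for 9 of 12 H4 genes and 0 of 6 H1 genes. The part of either in the ratio was not tested.

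**Figure D1:**
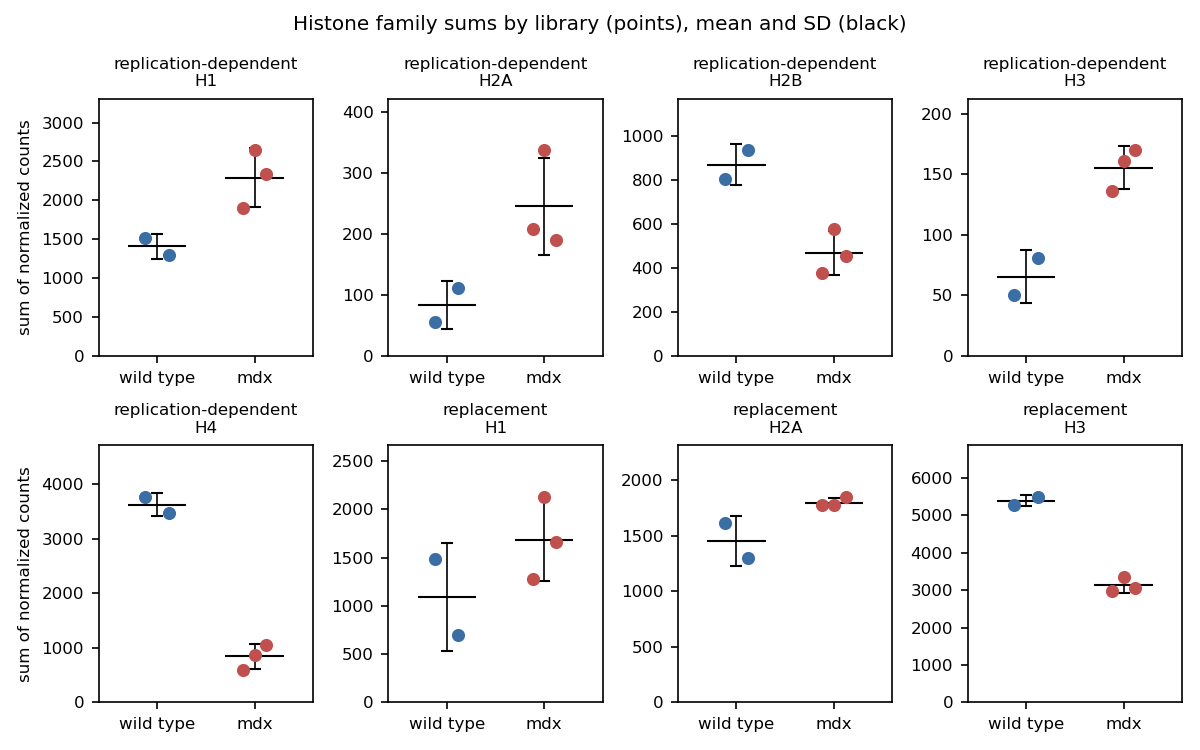
Summed normalized counts of each histone family in each library (points; horizontal lines and bars: group mean and SD), with replication-dependent and replacement genes apart. The 3 mdx libraries lie below both wild-type libraries for replication-dependent H4 (595 to 1061 against 3473 and 3770) and above them for replication-dependent H1.

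Single genes were tested with limma on log2(normalized count + 2), where log2 fold changes are mdx minus wild type and understate changes of low genes. A gene was called at an adjusted p (Benjamini-Hochberg over 18199 genes) under 0.05. The test covered genes that reached 10 normalized counts in 2 or more libraries, which retained 35 replication-dependent and all 14 replacement rows. The 12 untested rows, all replication-dependent, had a highest value between 12 and 80. Of the 49 tested, 8 passed the filter through mdx libraries only and 1 through wild type only.

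Among all genes, 14.6% were called higher and 10.3% lower in mdx, 24.9% in either direction. Of the 35 replication-dependent genes tested, 3 were called higher and 4 lower, which is 20% and close to that background. Of the 14 replacement rows, 3 were higher and 2 lower. Without mdx 1, 2 or 3 the replication-dependent calls were 1, 0 and 2 higher and 4, 5 and 2 lower, and the replacement calls 1, 0 and 0 higher and 1 lower each; the latter were also 1 lower without wild type 2, and 4 higher and 3 lower without wild type 1. The median log2 fold change was −0.68 for the replication-dependent genes, −0.16 for the replacement rows and 0.13 for all genes tested. When the dependence on transcript length and GC content was removed from each library, the calls among all genes went from 58.7% to 31.3% higher, and the median over all genes fell by 0.48. After this correction the medians were −0.33 for the replication-dependent genes, −0.54 for the replacement rows and −0.34 for all genes, so the replication-dependent median no longer lay below that of all genes. The genotypes' libraries did not overlap for 8 replication-dependent genes that were higher and 10 that were lower in mdx, where 28.2% and 23.8% of all genes tested, 52% in either direction, were separated in these ways.

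**Figure D2:**
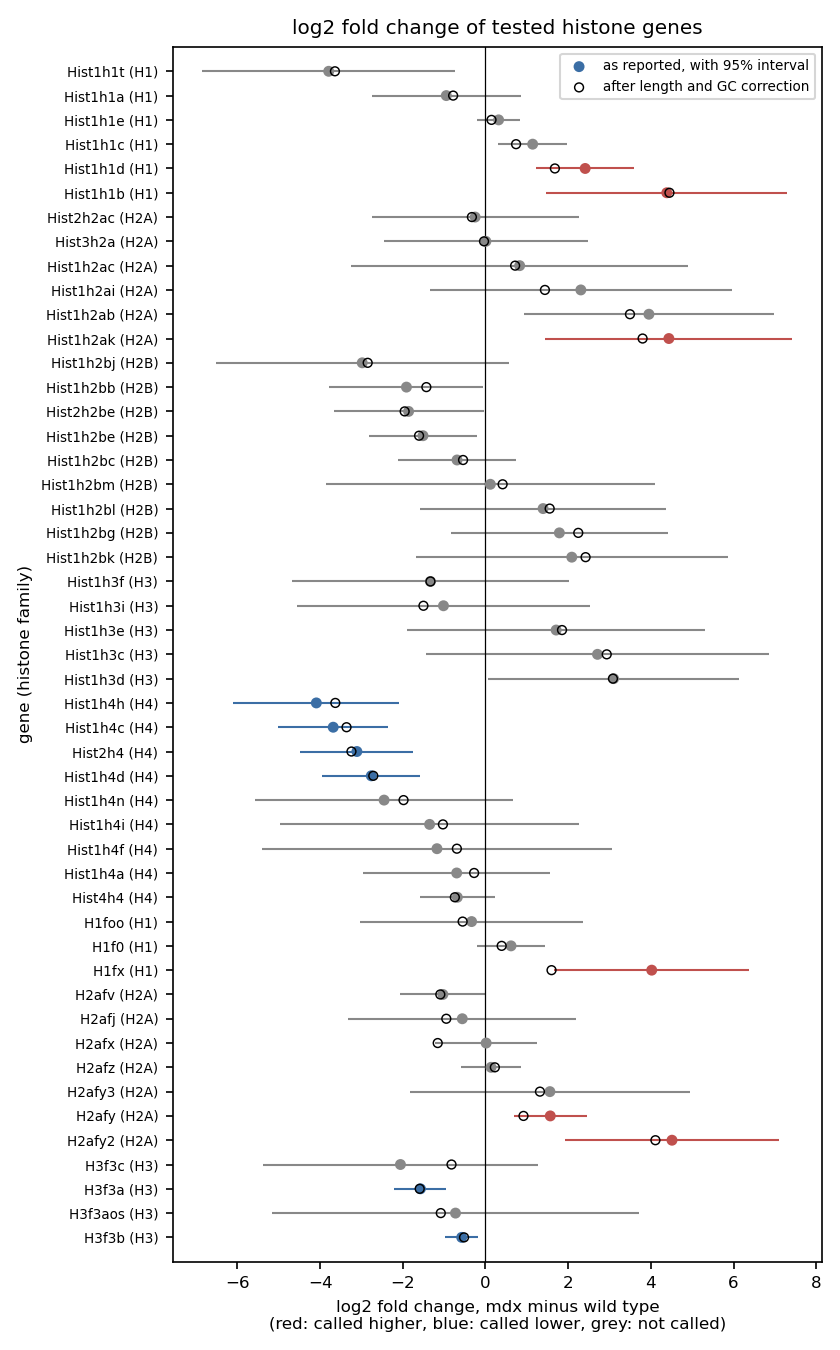
Log2 fold change (mdx minus wild type) of each of the 49 tested histone rows, with 95% intervals from limma, grouped by family (open circles: after correction for length and GC content). Points to the left of 0 are lower in mdx, and all 9 H4 genes tested with every library lie there.

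All 4 called decreases among the replication-dependent genes were H4 genes. Of 9 H4 genes tested, 4 fell and 5 were not called, all 9 log2 fold changes were negative and their median was −2.45. Among all 18199 genes tested, 10.3% were called lower and 8439 log2 fold changes were negative. Without wild type 1, 7 of 8 tested H4 genes were negative, and without the filter on low values 10 of 12. Every H4 gene encodes the same core protein, which pairs with H3 in the nucleosome, but the genes differ in location and flanking sequence. The coding sequences differ as well, apart from those of Hist1h4m and Hist1h4n. Identity to the nearest member was 91.6% for Hist2h4 and 87.1% for Hist4h4. Of the H4 genes that fell, 3 lie in the large Hist1 cluster on chromosome 13 and Hist2h4 in the Hist2 cluster on chromosome 3.

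Hist1h4c (ENSMUSG00000060678; chr13:23697635-23698454) was at 802 and 750 normalized counts in wild type but at 37, 47 and 114 in mdx. It was 12.8-fold lower in mdx (log2 fold change −3.68 ± 0.59 SE; limma adjusted p = 0.00235), the smallest p of any replication-dependent gene, and its lowest wild-type value was well above its highest mdx value. Hist1h4d (ENSMUSG00000061482; chr13:23581598-23582735) was at 1012 and 766 in wild type but at 102, 253 and 81 in mdx, a log2 fold change of −2.76 ± 0.53 SE (limma adjusted p = 0.00571). Hist1h4h (ENSMUSG00000060981; chr13:23531050-23531519) was at 355 and 555 in wild type but at 7, 49 and 37 in mdx. The log2 fold change of −4.09 ± 0.89 SE was the most negative of all histone rows tested (limma adjusted p = 0.0106). Hist2h4 (ENSMUSG00000091405; chr3:96261682-96263311) was at 604 and 701 in wild type but at 150, 41 and 64 in mdx (log2 fold change −3.11 ± 0.60 SE; limma adjusted p = 0.00625). None of these 4 genes overlapped between genotypes. The limma calls of Hist1h4h and Hist2h4 were lost without mdx 3 (adjusted p = 0.0517 and 0.0518), and that of Hist1h4d without mdx 1 (adjusted p = 0.0502). Hist1h4c kept its call without any 1 library, and Hist1h4h had a log2 fold change of −3.32 without mdx 1.

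Hist4h4, the only member of the Hist4 cluster (chr6:136801553-136804415), had the same stem-loop as Hist1h4c and the same promoter element but other values. It was at 643 and 603 in wild type and 258, 356 and 633 in mdx, where mdx 3 reached the wild-type range, and it was not called (log2 fold change −0.68 ± 0.40 SE; limma adjusted p = 0.248). Its coding sequence is 87.1% identical to that of its nearest relative, Hist1h4c. Hist4h4 contributed 17.1% and 17.4% of the H4 sum in wild type and 43.4%, 40.6% and 59.7% in mdx. The genes called lower, chosen here by their calls, contributed 73.6% and 79.8% in wild type and 49.8%, 44.5% and 27.9% in mdx. Of the other H4 genes tested, Hist1h4n was at 48 and 44 in wild type and 0, 14 and 19 in mdx, and Hist1h4a at 86 and 39 in wild type and 24, 20 and 87 in mdx.

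Replication-dependent mRNAs are short, and short transcripts as a group stood lower in mdx. Over the 2354 tested genes whose longest transcript is under 1000 bases, the median log2 fold change was −0.98, and 20.1% were called lower and 2.21% higher. Over the 5717 genes of at least 4000 bases it was 0.46, with 7.5% called lower and 26.8% higher. The 9 tested H4 genes had a median transcript of 727 bases. After correction for length and GC content, the median of H4 was −1.98 and the same number of genes, 4, was called lower. The 5 tested H3 genes (median transcript 836 bases) had a median of 1.71 before the correction and 1.85 after it. Of these, Hist1h3c, Hist1h3d and Hist1h3e passed the filter through mdx libraries only, so the filter itself favoured a positive H3 median.

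**Figure D3:**
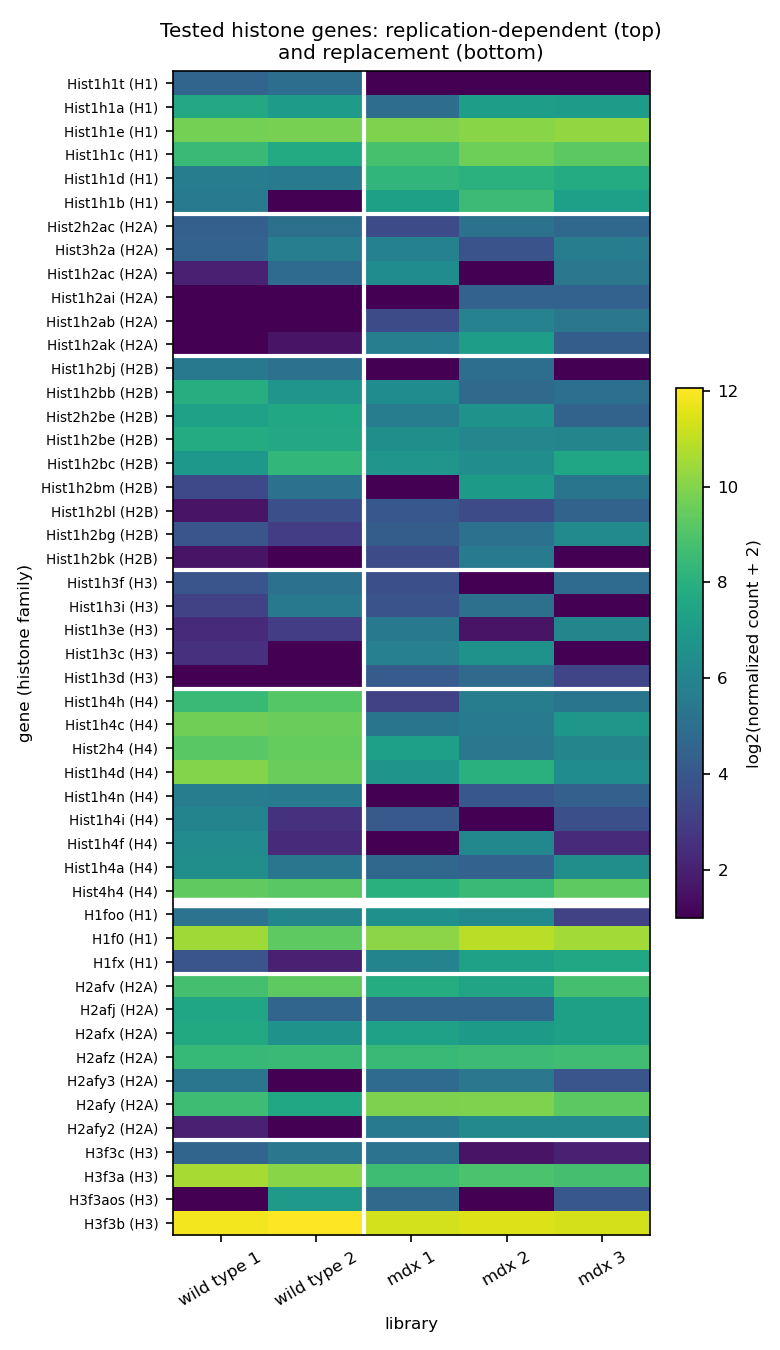
Level of each of the 49 tested histone rows (one per line) in each library (columns) as log2(normalized count + 2), from dark for low to yellow for high. The lines of Hist1h4c, Hist1h4d, Hist1h4h and Hist2h4 are bright in wild type and darker in all 3 mdx libraries, whereas Hist4h4 of mdx 3 (633 normalized counts) is as bright as in wild type.

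H1 genes rose or were not called. Of the 6 replication-dependent H1 genes, all tested, 2 rose and 4 were not called, with a median log2 fold change of 0.73. Among all genes tested, 14.6% were called higher and the median was 0.13. The 6 H1 genes encode somatic linker histones, apart from Hist1h1t, the testis form. Hist1h1d (H1.3; chr13:23553262-23560686) was at 50 and 45 in wild type and 305, 266 and 219 in mdx, with every mdx library above wild type (log2 fold change 2.41 ± 0.53 SE; limma adjusted p = 0.0109). Its longest annotated transcript, of 7425 bases, reaches beyond the histone reading frame of 663 bases, so its reads need not all come from the short histone mRNA. The call was lost without mdx 1 (limma adjusted p = 0.0523) and without mdx 2 (0.0514). Hist1h1b (H1.5; chr13:21779883-21780625) was at 47 and 0 in wild type and 152, 384 and 147 in the mdx libraries (limma adjusted p = 0.0362). The mdx libraries were above both wild-type libraries, but its log2 fold change of 4.39 rested on the zero: it was 6.69 without wild type 1 and 2.08 without wild type 2. Without mdx 1, 2 or 3 the limma adjusted p was 0.131, 0.170 and 0.134, and it was 0.0686 with a pseudocount of 0.5 and 0.124 without both the trend and the robust option of eBayes.

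The clustered H1 gene most abundant per kilobase in every library, Hist1h1e (H1.4), was not called. It was at 857 and 877 in wild type and 957, 1081 and 1220 in mdx (log2 fold change 0.32 ± 0.23 SE; limma adjusted p = 0.333). Its annotated exons overlap those of Hist1h2be on the same strand, so reads there cannot be assigned to either gene with certainty. Hist1h1c (H1.2) was at 345 and 212 in wild type and 455, 770 and 613 in mdx (log2 fold change 1.14 ± 0.37 SE, limma adjusted p = 0.0522), with the genotypes apart but the threshold missed. Its limma adjusted p was 0.0436 with a pseudocount of 10, 0.0480 without the filter, 0.0420 with a minimum of 50 and 0.0451 after quantile normalization. It was not called with a pseudocount of 0.5 (0.0600), as CPM (0.0543), after length and GC correction (0.175) or without both the trend and the robust option (0.144). Hist1h1t was at 22 and 30 in wild type and listed at 0 in all mdx libraries (limma adjusted p = 0.0701), and it passed the filter through wild type only. Hist1h1a (H1.1) was at 201 and 132 in wild type and 29, 142 and 138 in mdx, where only mdx 1 lay far from wild type. Both Hist1h1d and Hist1h1b, the called genes, were also called after correction for length and GC content, at log2 fold changes of 1.68 and 4.45.

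Of the 6 tested H2A genes, 1 rose and 5 were not called, where 14.6% of all genes tested were called higher. No H2B or H3 gene was called. The unadjusted limma p was under 0.05 for 3 of 9 H2B and 1 of 5 H3 genes, and for 6933 of all 18199 genes tested. The H2A gene that rose was Hist1h2ak (chr13:21753435-21753827), listed at 0 and 1 in wild type and 51, 146 and 17 in the mdx libraries (limma adjusted p = 0.0382). It passed the filter through mdx only, its coding sequence is 97.4% identical to that of Hist1h2ae, and its call was lost without mdx 1 (limma adjusted p = 0.0818) and without mdx 2 (0.0773), and once length and GC content were corrected for (0.0765). Its log2 fold change of 4.44 was 3.70 without mdx 2, 5.18 without mdx 3, and 5.88 with a pseudocount of 0.5; the call was lost with a pseudocount of 10 (limma adjusted p = 0.0524) and after quantile normalization (0.137). Hist1h2ab was listed at 0 in wild type 1 and 2 and at 10, 57 and 40 in the mdx libraries (limma adjusted p = 0.0595), and it too passed the filter through mdx only. Hist2h2ac, at 19 and 32 in wild type and 10, 33 and 25 in mdx, and Hist3h2a, at 20 and 51 in wild type and 56, 12 and 48 in mdx, overlapped between genotypes.

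H2B, the partner of H2A in the nucleosome, was lower as a family but in no single called gene. Hist1h2be was at 220 and 201 in wild type and 90, 67 and 63 in mdx (log2 fold change −1.51 ± 0.57 SE; limma adjusted p = 0.0859). The values of Hist2h2be, in the Hist2 cluster, were 160 and 193 in wild type and 49, 98 and 21 in mdx (log2 fold change −1.86 ± 0.80 SE; limma adjusted p = 0.123). In both, every mdx library was below wild type without reaching the threshold. Hist1h2bc overlapped, at 117 and 317 in wild type and 108, 84 and 185 in mdx. Among the H3 genes, each of them with a near-identical copy (coding identity over 95%), Hist1h3d was listed at 0 in wild type 1 and 2 and at 16, 26 and 8 in the mdx libraries (limma adjusted p = 0.123), an example chosen after its values were seen.

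Replacement H3 is histone H3.3, a single protein encoded by H3f3a and H3f3b, which is deposited outside replication in transcribed and regulatory chromatin and at telomeres. Both genes fell. H3f3a (ENSMUSG00000060743; chr1:180800832-180813943) was at 1569 and 1093 in wild type and 395, 487 and 439 in mdx, with a wide gap between genotypes (2.98-fold lower, log2 fold change −1.57 ± 0.28 SE; limma adjusted p = 0.00397). It was called without any 1 library and after length and GC correction. H3f3b (chr11:116021912-116027962), the most abundant histone gene per kilobase in every library, was at 3700 and 4240 in wild type and 2513, 2860 and 2610 in mdx (1.49-fold lower, log2 fold change −0.58 ± 0.17 SE; limma adjusted p = 0.0407). The genotypes did not overlap, but the call was lost on the CPM scale (limma adjusted p = 0.272), after length and GC correction (0.0514), and without wild type 2 (0.187), mdx 1 (0.109), mdx 2 (0.0709) or mdx 3 (0.0968).

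The per-kilobase ratio of H3f3b to H3f3a was 2.66 and 4.38 in wild type and 7.19, 6.64 and 6.72 in mdx, so H3f3b exceeded H3f3a in all libraries and by more in mdx. The summed replacement H3 rows were at 5291 and 5498 in wild type and 2969, 3348 and 3065 in mdx, 1.72-fold lower. The antisense row H3f3aos (0 and 125 in wild type; 26, 0 and 14 in mdx) and the pseudogene row H3f3c (22 and 40; 35, 1 and 2) overlapped between genotypes. The strand setting of the counting is not given, so reads of H3f3a and its antisense partner may not be told apart.

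Among replacement H2A genes, 2 of 7 rose and 5 were not called, where 14.6% of all genes tested were called higher. Both that rose encode macroH2A, the variant with a large extra domain that is associated with silent chromatin and the inactive X chromosome. H2afy (macroH2A1; chr13:56073619-56135631) was at 397 and 190 in wild type and 933, 962 and 610 in mdx, every mdx library above wild type (log2 fold change 1.57 ± 0.39 SE; limma adjusted p = 0.0188). Its call was lost with length and GC corrected (limma adjusted p = 0.113) and without both the trend and the robust option of eBayes (0.1). It was also lost without mdx 1 (0.0987), mdx 2 (0.0955) or mdx 3 (0.0562). H2afy2 (macroH2A2; chr10:61738665-61784147) was at 2 and 0 in wild type and 47, 72 and 72 in the mdx libraries (limma adjusted p = 0.0203); it passed the filter through mdx only. The call of H2afy2 was lost without mdx 2 (limma adjusted p = 0.0525) and mdx 3 (0.0570). The log2 fold change of 4.51 rests on near-zero wild-type values, and it was 5.82 and 2.73 with pseudocounts of 0.5 and 10. For H2afy it was 0.92 after length and GC correction.

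The other replacement H2A genes were not called. H2afz and H2afv encode the H2A.Z proteins, which mark promoters. H2afz differed little, with all mdx libraries slightly above wild type, at 338 and 346 in wild type and 355, 375 and 398 in mdx (log2 fold change 0.13, 95% interval −0.60 to 0.87; limma adjusted p = 0.798). H2afv was at 447 and 635 in wild type and 228, 172 and 446 in mdx (log2 fold change −1.03, 95% interval −2.07 to 0.01; limma adjusted p = 0.134). H2afx, the replacement gene with a stem-loop, overlapped between genotypes at 208 and 101 in wild type and 158, 129 and 155 in mdx. Its fitted log2 fold change was 0.02 (95% interval −1.22 to 1.25; limma adjusted p = 0.987), against −1.16 after length and GC correction. H2afj (180 and 22; 22, 22 and 154) and the pseudogene row H2afy3 (38 and 0; 27, 40 and 13) varied more within a genotype than between them.

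Of the 3 replacement H1 genes, H1fx rose and H1f0 and H1foo were not called. H1f0, the linker histone of resting and differentiated cells and the second most abundant histone gene per kilobase in each mdx library, was at 1439 and 627 in wild type and 1122, 1899 and 1457 in mdx (log2 fold change 0.62 ± 0.37 SE; limma adjusted p = 0.248). Wild type 1 lay within the mdx range and wild type 2 below it: the log2 fold change was 1.22 without wild type 1 (limma adjusted p = 0.000873) and 0.02 without wild type 2 (0.969). H1fx (H1.10; chr6:87980421-87981637) was at 13 and 2 in wild type and 61, 159 and 194 in mdx, all mdx libraries above wild type (log2 fold change 4.02 ± 1.04 SE; limma adjusted p = 0.0225). Once corrected for length and GC content it was no longer called (log2 fold change 1.598; limma adjusted p = 0.338), and the call was also lost without mdx 1 (0.0523), mdx 2 (0.0956) or mdx 3 (0.110). The estimate was 4.97 without wild type 1 and 3.07 with wild type 2 left out, and its exons overlap those of a second annotated gene. H1foo, the oocyte linker histone, overlapped at 35 and 66 in wild type and 91, 73 and 7 in mdx.

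Genes that make histone mRNA or handle histone proteins were followed as lists. Of 22 tested genes for histone mRNA processing and transcription, 2 rose, 3 fell and 17 were not called (22.7% called, near the 24.9% of all genes tested). Their median log2 fold change was −0.02 (1 rose and 7 fell after length and GC correction). Without wild type 1, 5 of these genes were called higher, and without each other library 1; without wild type 2, mdx 1 or mdx 2, 1 was called lower. Slbp, which encodes the stem-loop binding protein, was at 698 and 738 in wild type and 338, 449 and 299 in mdx, clearly apart (2.01-fold lower; SE 0.31 on the log2 scale; limma adjusted p = 0.0462). That call was lost without each library in turn (limma adjusted p = 0.0741 and 0.124 without wild type 1 and 2, then 0.107, 0.0547 and 0.110 without mdx 1, 2 and 3). Zfp473, whose human counterpart binds the stem-loop complex, was at 164 and 227 in wild type and 11, 7 and 39 in mdx (log2 fold change −3.53 ± 0.99 SE; limma adjusted p = 0.0302; lost without wild type 2, mdx 1 and mdx 2, at 0.101, 0.0833 and 0.0755; log2 fold change −4.17 without mdx 3).

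Ncbp2, a subunit of the nuclear cap-binding complex, fell from 1076 and 1353 in wild type to 486, 300 and 275 in the mdx libraries (limma adjusted p = 0.00489). Upf1, a helicase of mRNA decay that also acts on histone mRNA, rose from 368 and 475 to 2574, 2097 and 2219, the smallest p of the list (log2 fold change 2.45 ± 0.23 SE; limma adjusted p = 0.000148). This change was 1.13 on the log2 scale after length and GC correction, where it was still called. Sympk, encoding the scaffold symplekin, rose from 773 and 456 to 1219, 1182 and 1266 (log2 fold change 1.04; limma adjusted p = 0.0246). Its log2 fold change was −0.13 after length and GC correction, and the call was lost without wild type 2 (limma adjusted p = 0.130), mdx 1 (0.0894), mdx 2 (0.0833) and mdx 3 (0.0974). Npat, the coactivator of histone gene transcription, was at 585 and 539 in wild type and 407, 865 and 422 in mdx, and Lsm11, of the U7 ribonucleoprotein that directs cleavage, at 35 and 49 and at 151, 37 and 159; both overlapped between genotypes.

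Of 34 tested chaperone and deposition genes, 5 rose, 3 fell and 26 were not called (23.5% called, near the 24.9% of all genes tested). Their median log2 fold change was 0.21 (1 rose and 12 fell after length and GC correction). Without mdx 1, 2 or 3 the chaperones called higher numbered 3, 2 and 1; those called lower numbered 1 without mdx 1 or mdx 3 and 5 without wild type 1. Nasp, a chaperone of soluble H3 and H4, was at 2344 and 3687 in wild type and 1028, 994 and 547 in mdx, 3.56-fold lower (log2 fold change −1.83 ± 0.33 SE; limma adjusted p = 0.00414). Ep400 and Cabin1, of the complexes that handle H2A.Z and H3.3, and Hjurp, the chaperone of the centromeric H3 variant, rose by a log2 fold change of 0.93, 1.09 and 1.20 (limma adjusted p = 0.00407, 0.0115 and 0.0126). With length and GC content corrected for, Ep400, Cabin1 and Hjurp stood at −0.32, −0.38 and 0.42 and were not called (limma adjusted p = 0.163, 0.294 and 0.251). The call of Cabin1 was lost without mdx 1 and mdx 3 (limma adjusted p = 0.0598 and 0.0683), and that of Hjurp without mdx 1, 2 and 3 (0.0727, 0.0681 and 0.0736). Cenpa, the centromeric H3 variant itself, was at 47 and 3 in wild type and 148, 154 and 88 in the mdx libraries (limma adjusted p = 0.0689).

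Cell cycle genes were followed beside the histones, without a test between the lists. Of 24 mitosis genes tested, 14 rose and 10 were not called (58.3% called, against 24.9% of all genes tested in either direction and 14.6% higher). Both wild-type libraries listed 5 of the 24 at 0, so these passed the filter through mdx only, which favours rises. The median log2 fold change of the 24 was 3.47, and 9 rose after length and GC correction. Without mdx 2 or mdx 3, 7 and 5 mitosis genes were called higher. Mki67, a marker of cycling cells, was at 71 and 0 in wild type and 2297, 5480 and 2337 in the mdx libraries (limma adjusted p = 0.0023, and 0.0684 without the filter on low values; the log2 fold change was 10.59 without the first wild-type library and 5.40 without the second). Kif23, which acts in cytokinesis, was listed at 0 in wild type 1 and 2 and at 315, 482 and 208 in mdx, so it passed the filter through mdx only. Cenpf, of the kinetochore, and Top2a, a topoisomerase, rose by 3.89 and 3.59 on the log2 scale (limma adjusted p = 0.0013 and 0.00136).

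Of 35 DNA replication genes tested, 9 rose, 2 fell and 24 were not called (31.4% called, against 24.9% of all genes tested). Their median log2 fold change was 0.78, and 5 rose and 4 fell after length and GC correction. Leaving out mdx 1, 2 or 3 gave 3, 3 and 4 replication genes higher, and 1 lower without mdx 1 or mdx 3. Pcna, the replication clamp, was at 2792 and 3337 in wild type and 409, 590 and 743 in mdx (log2 fold change −2.43 ± 0.28 SE; limma adjusted p = 0.000474), whereas Mcm2, of the replicative helicase, was at 114 and 70 and at 652, 1103 and 668 (log2 fold change 3.10 ± 0.41 SE; limma adjusted p = 0.0009). Cdt1, which loads that helicase, was at 32 and 16 in wild type and 393, 523 and 244 in mdx. Mcm10 was listed at 0 in wild type 1 and 2 and at 168, 390 and 100 in mdx, so it passed the filter through mdx only. The summed mitosis genes were highest in mdx 2 (17061 normalized counts, against 6169 in mdx 1 and 7349 in mdx 3), the library that also had the highest H1, H2A and H2B sums of the 3 mdx libraries. The highest mdx sums of H3 and H4 were in mdx 3. The endothelial, macrophage and mesenchymal marker sums, given with the libraries, were likewise higher in mdx than in wild type, and their part in the cell cycle counts was not tested.

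**Figure D4:**
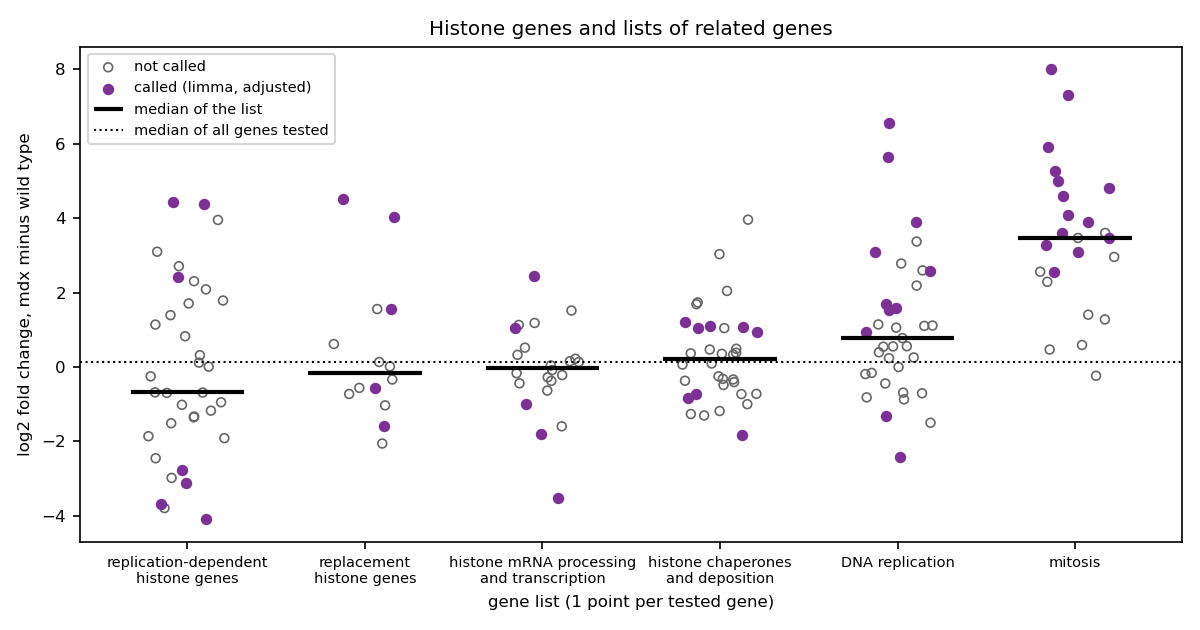
Log2 fold change (mdx minus wild type) of each tested gene in the 2 classes of histone genes and 4 lists of related genes (filled: called by limma; open: not called; bars: medians; dotted line: median of all genes tested, 0.13). The median of the replication-dependent histone genes, −0.68, lies below the dotted line and that of the mitosis genes, 3.47, above it; after length and GC correction, not drawn, the former was −0.33 and the median of all genes −0.34.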

How the data were processed

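RNA of 5 libraries (2 wild type, 3 mdx; groups and replicate numbers from the sample titles and genotype labels) had been processed with STAR 2.6.1d, featureCounts 1.6.3 and DESeq2 1.18.1 on mm10, per the submitters' processing notes. The deposited values are whole numbers that were treated as a score, normalized counts rounded by the authors; the strand setting and the handling of reads that map to several places were not given in the sources used here. Raw depth is unknown, so no counting interval is given.

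The limma test (limma 3.58.1, R 4.3.3; lmFit and eBayes with trend and robust, two-sided, genotype as the only term) was run on log2(normalized count + 2) over the 18199 genes with at least 10 in at least 2 libraries, with Benjamini-Hochberg adjustment over all of them and a threshold of 0.05. It was tested on simulated data. Family sums and per-kilobase levels carry no test. Transcript lengths, GC content and coding sequences came from GENCODE M21 and promoters from RefSeq GRCm38.p6. Alternatives were other pseudocounts, filters, scalings and variance models, a length and GC correction, the replicate number as a block, and leaving out each library.

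The members and the gene lists were chosen with earlier results of these data known. Named were every replacement row, up to 10 called replication-dependent genes in each direction by p, the 6 most abundant, the Hist2, Hist3 and Hist4 members tested, up to 4 called genes of each related list by p, and Slbp, Npat, Lsm11, Cenpa, Mcm2, Pcna and Mki67. Further members were named after their values were seen: Hist1h1t, Hist1h1a, Hist1h4n, Hist1h4a, Hist1h2ab, Hist1h2bc, Hist1h2be and Hist1h3d.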

Additional observations from a re-analysis of the deposited data

How the results depend on the processing

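The direction of all 10 family ratios was the same as CPM and without each library, although the replacement genes together then stood at a log2 ratio of −0.063 and replacement H3 at −0.58. All 9 tested H4 genes had negative log2 fold changes as CPM, after quantile normalization and after length and GC correction, but 7 of 8 were negative without wild type 1 and 10 of 12 without the filter. Hist1h4c, Hist1h4d, Hist1h4h and Hist2h4 were called lower in all 8 settings that used every library and no block. On the CPM scale the median of all genes was 0.31, and 0.00015 after quantile normalization, against 0.13 as reported. Length and GC correction gave 1460 genes higher and 3198 lower over all genes, 1 replacement row higher and 1 lower, 1 and 7 genes of histone mRNA processing, 1 and 12 chaperones, 5 and 4 replication genes, and 9 mitosis genes higher. Without both the trend and the robust option of eBayes, 1150 of all genes were lower, 1 replacement row was lower, 1 processing gene, 1 chaperone, 4 replication and 8 mitosis genes were higher, and 0 chaperones and 1 replication gene were lower. As CPM and after quantile normalization 1 replacement row was lower, and as CPM also 1 chaperone and 1 replication gene. With a pseudocount of 10, or without the filter, 5 chaperones were lower. The cause of these shifts was not tested.

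With the replicate number as a block, 1163 genes were higher and 860 lower, with 0 replication-dependent and 0 replacement histone genes higher, and 2 and 1 lower. The same fit gave 1 processing gene, 2 chaperones, 4 replication and 6 mitosis genes higher, and 0, 1 and 1 of the first 3 lists lower. With the block and the length and GC correction, 924 genes were higher, with 0 replication-dependent and 0 replacement histone genes among them, 1 replacement row was lower, 1 processing gene, 1 chaperone, 5 replication and 7 mitosis genes were higher, and 9 chaperones were lower. The labels do not say that a number is shared by litter, batch or day, and same-numbered libraries' deviations correlated at −0.01 and −0.02, so the block is not read as a pairing. Only mdx has a library numbered 3, so the block absorbs mdx 3. Log2 fold changes with the block alone therefore equalled those without mdx 3 (Hist1h4c at −4.153 in both), and the 2 settings are not separate checks of them.

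Leaving out libraries from the family sums was an alternative chosen after seeing the data. Without 1 library at a time, calls over all genes ranged from 1450 to 3308 higher and 1112 to 1853 lower. Replication-dependent calls ranged from 0 to 4 higher and 2 to 5 lower, and replacement calls from 0 to 4 and 1 to 3. Processing genes ranged from 1 to 5 and 1 to 3, chaperones from 1 to 7 and 1 to 5, replication genes from 3 to 12 and 1 to 2, and mitosis genes from 5 to 16 higher. The log2 family ratios ranged from −0.70 to −0.46 over all replication-dependent genes, 0.59 to 0.82 for H1, 1.14 to 2.16 for H2A, −1.07 to −0.76 for H2B, 0.94 to 1.64 for H3 and −2.30 to −1.90 for H4. In the replacement genes they ranged from −0.34 to −0.18 in all, 0.18 to 1.28 for H1, 0.16 to 0.47 for H2A and −0.84 to −0.75 for H3.

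Among the genes named by the rule, log2 fold changes that changed sign were those of Cabin1 (−0.38 with the length and GC correction and −0.45 with the block as well), Ep400 (−0.32 and −0.36), Sympk (−0.13 and −0.12), Lsm11 (−0.15 with both), H1foo (0.74 with the block, 0.55 with both), Npat (0.10 as CPM, 0.080 with the block), H2afx (−0.071 after quantile normalization, −1.16 after length and GC correction, −0.023 with the block and −1.11 with both) and Hist3h2a (−0.00071 with a pseudocount of 0.5, −0.64 after quantile normalization, −0.036 after length and GC correction, −0.26 with the block and −0.30 with both). Without 1 library the range crossed 0 for H1foo (−0.95 to 0.74), H2afj (−2.02 to 0.90), H2afx (−0.50 to 0.53), H2afy3 (−0.60 to 3.72), H3f3aos (−3.72 to 2.27), Hist2h2ac (−0.60 to 0.20), Hist3h2a (−0.62 to 0.66) and Npat (−0.44 to 0.11). Of these, Cabin1, Ep400 and Sympk were called as reported. With 2 and 3 libraries and raw depth unknown, levels of a few normalized counts could not be compared.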
